A study of Mus musculus with 8 samples.

Results

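The regions described here are m6A peaks that the SySy antibody called in the proximal 3′ UTR, which is taken as more than 200 and up to 1000 nt downstream of the stop codon. A peak was a member if its midpoint, read on its own strand, fell in that window of the spliced transcript with the longest coding sequence of a protein-coding gene (GENCODE vM21 on mm10). The rule took 1540 of 10749 SySy-called peaks, out of 17068 peaks in all 3 lists, and the members lay in 1108 genes. Ranges of distance or length below leave out their lower bound. Neither the sequence of a peak nor its detection by a second antibody entered the rule.

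The peaks came from ChrMeRIP-seq, in which N6-methyladenosine (m6A) is immunoprecipitated from fragmented chromatin-associated RNA, a fraction rich in nascent transcripts. All 8 libraries were from E14 mESC, a line of mouse embryonic stem cells grown with serum and LIF, with no genetic change or treatment named in the labels. They formed 4 groups of 2, namely immunoprecipitated RNA and input for the Synaptic Systems antibody (SySy) and the same pair for the Abcam antibody. By the study's methods the library kit differed between the antibodies, while the labels name a single kit for all, so antibody and kit cannot be told apart.

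The peak lists were confidence group 1 (Cfg1, called with both antibodies), confidence group 2 (Cfg2, called with SySy but with Abcam signal too low for a call) and confidence group 3 (Cfg3, from Abcam alone). Of the members, 618 in 490 genes were Cfg1 and 922 in 749 genes were Cfg2. The lists were called on pooled duplicates and hold no peak height, no input level and no value per library, so depth is unknown and no error between replicates exists. Only the counting error of the lists is covered by p-values and 95% intervals, and peaks of a gene are not independent replicates. Without expression values the cell type could not be checked against its markers.

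m6A is placed on nascent RNA by a complex around METTL3 and METTL14, which methylates adenosines in the sequence context called DRACH (D is A, G or T, R is A or G, and H is A, C or T), most readily in GGACT. In messenger RNA the mark is known to gather in long internal exons, around stop codons and in 3′ UTRs. The 3′ UTR carries sites for microRNAs and RNA-binding proteins, and m6A there is bound by YTH-domain readers that affect the decay and translation of the transcript.

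The following stretches of reference sequence (GRCm38.p6, RefSeq FASTA, the coordinates of mm10) show the motif in members of Cfg1. They were chosen because they lie in genes that the results below turn on, each around the GGACT nearest to the midpoint of its peak. Each is read 5′ to 3′ on the strand of the gene, with that GGACT in capitals (the Kdm4b stretch holds a further copy in lower case), and a pair from the same Celsr2 3′ UTR is given to show repeated use of the motif. A motif inside a peak is a match of letters and not a mapped methylated base.
Arrdc3, chr13:80893975-80894004, plus strand: ttaatgtagcctGGACTctacctgcatatg
Amotl2, chr9:102732652-102732681, plus strand: tcccaccagcagGGACTgggagagggagct
Sel1l, chr12:91809096-91809125, minus strand: tgctcccacagaGGACTttgccccagctac
Rictor, chr15:6797007-6797036, plus strand: accacttacaagGGACTgagccagatgagc
Celsr2, chr3:108392178-108392207, minus strand: ctgggaggagagGGACTcttagggggcctg
Celsr2, chr3:108391948-108391977, minus strand: ccaggggcagaaGGACTcatggcccctgga
Fgf4, chr7:144863524-144863553, plus strand: tttgccatttttGGACTggccaacagggca
Tbx3, chr5:119683323-119683352, plus strand: ctttgaaacgcgGGACTgagggggcgggag
Socs3, chr11:117967250-117967279, minus strand: cctttgacaagcGGACTctcccctcccctt
Dusp1, chr17:26505991-26506020, minus strand: gcagaagagaaaGGACTctgtttgaggcag
Kdm4b, chr17:56402472-56402501, plus strand: ttaaatgacaaaGGACTggactgagggccc
Notch1, chr2:26458585-26458614, minus strand: aatgtgcattgtGGACTcgccagagtagcc

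Peaks of the proximal window were a larger share of the SySy-called lists than of the Abcam-only list, whose peaks cannot be members. The proximal window held 11.7% of Cfg1 peaks (95% Wilson interval 10.9 to 12.6%), 16.8% of Cfg2 peaks (15.9 to 17.9%) and 2.33% of Cfg3 peaks (1.98 to 2.73%). It held 47.5% (45.8 to 49.3%) of the 3239 SySy-called peaks with their midpoint in a 3′ UTR. These shares depend on where the borders of the window were set, and they were not tested. The contrast was not particular to the window. Peaks around the stop codon numbered 2093 of 10749 SySy-called peaks and 346 of 6319 Abcam-only peaks. In the 3′ UTR past the window the counts were 383 and 75, again a larger share of the SySy-called peaks.

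Within the window, members thinned out with distance from the stop codon. Per megabase of annotated 3′ UTR, 261 members lay at 200 to 400 nt (806 peaks), 146 at 400 to 600 nt (380 peaks), 99.9 at 600 to 800 nt (224 peaks) and 67.1 at 800 to 1000 nt (130 peaks). The density was therefore 3.89 times as high at the near end as at the far end, and 4.46 times when only the 3′ UTRs of genes with at least 1 exonic peak were counted. On either side of the window the density was 345 per megabase at 0 to 200 nt and 37.5 per megabase at 1000 to 2000 nt, so the window spans the middle part of the decline. Next to the stop codon it did not fall, with 321 per megabase in the first 100 nt and 371 in the next 100 nt. The median member lay 389 nt from the stop codon, with quartiles at 278 and 573 nt, and the medians of Cfg1 and Cfg2 were 376 and 399 nt.

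**Figure D1:**
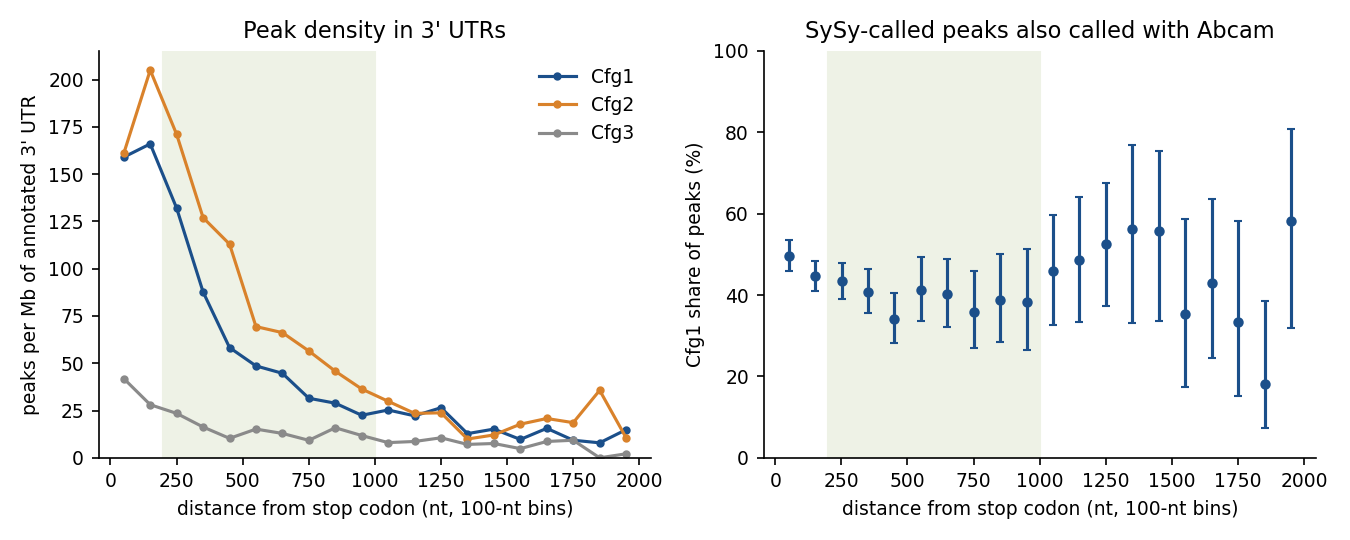
The left panel plots peaks per megabase of annotated 3′ UTR for each list in 100-nt bins of distance from the stop codon, and the right panel plots the Cfg1 share of SySy-called peaks in the same bins with 95% Wilson intervals. The shaded band is the proximal window, across which the SySy-called density falls from 303 per megabase at 200 to 300 nt to 58.9 per megabase at 900 to 1000 nt.

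The counts just inside and just outside each border were close. At the near border, a peak of Spry4 at 200 nt was left out, and members of Coro1c and Mfsd13a lay 1 nt further on. At the far border, members of Mpzl1 and Nudcd3 lay at 996 and 997 nt, and peaks of Rxra and Oxsr1 at 1003 and 1010 nt were left out. The 20 nt inside the near border held 123 SySy-called peaks and the 20 nt outside it 125, while the far border had 9 inside and 11 outside.

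Nearly all members lay in the same uninterrupted exon as the stop codon. The peak and the stop codon shared an exon for 1476 members (95.8%, 94.7 to 96.7%), and 1523 (98.9%) lay in the last exon. The same shares were not counted over all annotated 3′ UTR windows, so they are not read as a trait of the members. Of the 1482 members in the last of several exons, the median distance back to the last exon junction was 600 nt, with a range of 109 to 12510 nt. For 1963 SySy-called peaks within 200 nt of the stop codon that distance had a median of 330 nt. In another transcript of the gene, 89 members (5.78%) were intronic and 6 (0.39%) coding. Another gene on the opposite strand had an exon at 54 members (3.51%), and 30 members fell in more than 1 gene.

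Some members lay past the end of a shorter annotated 3′ UTR of their gene. For 830 members (53.9%) the gene had another annotated transcript with the same stop codon, and 247 members (16%, 14.3 to 18%) lay past the end of a shorter such transcript, so that only the longer annotated 3′ UTR holds the peak. The files hold no measure of which end was used, and the share of all 3′ UTR windows past such an end was not counted. Among these 247, 43.7% (37.7 to 50%) were Cfg1, beside 40.1% (37.7 to 42.6%) of all members. Relative to the full 3′ UTR, the median member lay 27.2% of the way along, and the median distance left to the annotated end was 1136 nt.

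By the median, genes with a member had longer 3′ UTRs than all coding genes with one over 200 nt. The window itself asks for more than 200 nt, and it was reached by 17030 coding genes with a median 3′ UTR of 1080 nt, against 1553 nt for the 1108 genes with a member and 1424 nt for all those with an exonic peak of any list. Over these 17030 genes 6.51% had a member, and over the 4076 of them with an exonic peak of any list 27.2% did. Both shares are the background for the gene groups below, and a list can lie above the first and below the second. By 3′ UTR length, a member was found in 1.35% of 3998 genes with 200 to 500 nt, 6.97% of 4044 genes with 500 to 1000 nt, 8.06% of 4440 genes with 1000 to 2000 nt, 9.18% of 3356 genes with 2000 to 4000 nt and 8.89% of 1192 longer ones. Per megabase of window the members numbered 109, 170, 142, 164 and 181 in the same classes, a narrower range than that of the gene shares. Over the genes of each class with an exonic peak of any list, the shares were 9.2%, 32.6%, 30.4%, 29.8% and 25.7%. Counted so, the share did not rise with length above 500 nt, and genes of the shortest class hold only part of the window.

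In most genes the proximal 3′ UTR held a single peak. Of the 1108 genes, 796 (71.8%) had 1 member, 223 had 2, 64 had 3, 20 had 4, 4 had 5 and 1 had 6. The proximal window was the sole site of SySy-called exonic peaks in 490 genes (44.2%, 41.3 to 47.2%), whereas 417 (37.6%) also had a peak within 200 nt of the stop codon, 309 (27.9%) one further upstream and 93 (8.39%) one beyond 1000 nt. Members from both lists occurred in 131 genes (11.8%), Cfg1 members alone in 359 (32.4%) and Cfg2 members alone in 618 (55.8%). An Abcam-only proximal peak lay in 38 of the 1108 genes (3.43%), which are 27.1% (20.5 to 35%) of the 140 genes with such a peak. Over all 4076 genes with a 3′ UTR over 200 nt and an exonic peak of any list, 27.2% had a member, so this overlap was near the background.

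Many members were pieces of a broader enriched region. The authors split broad calls between their summits and marked the pieces with letters, and by these names 885 members (57.5%, 55 to 59.9%) were pieces and 1168 calls lay behind the 1540 members. The same call also gave a peak within 200 nt of the stop codon for 407 members (26.4%), so that enrichment ran on from the stop codon into the window. Pieces and whole calls differed in their motif content. GGACT was present in 42.1% (38.4 to 46%) of 655 unsplit members, in 26.8% (22.7 to 31.3%) of the 407 members continuous with a stop codon peak and in 30.3% (26.4 to 34.6%) of the other 478 pieces, with median widths of 183, 182 and 168 nt. These groups were formed after the names had been read and were not tested.

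The largest runs of members tiled much of the window. Arrdc3, an arrestin-domain gene that acts on receptor trafficking, had 6 members, the highest number of any gene, and no other SySy-called exonic peak. Their midpoints lay 219, 327, 442, 584, 779 and 952 nt from the stop codon in a 3′ UTR of 2616 nt. The members at 584 and 779 nt were Cfg1 and the other 4 were Cfg2, so the peaks shared by both antibodies formed the centre of the run, and the single GGACT of the run (shown above) lay in the Cfg1 member at 584 nt. Sel1l, which encodes an adaptor of endoplasmic reticulum-associated degradation, had 4 Cfg1 members between 438 and 972 nt with a Cfg2 member before them at 287 nt. Ankrd6, an ankyrin-repeat gene linked to Wnt signalling, had 5 members from 325 to 983 nt, all Cfg2, with no GGACT in any of them.

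Other genes with many members combined them with peaks elsewhere. Amotl2, a regulator of Hippo signalling and cell junctions, had 4 members, all Cfg1, at 246, 410, 807 and 956 nt. Peg10, an imprinted gene derived from a retrotransposon, and Rictor, the defining subunit of mTORC2, also had 4 members each, all Cfg1, beside peaks in the stop codon window and further upstream and downstream. Celsr2, an atypical cadherin of planar cell polarity, had 3 Cfg1 members and 1 Cfg2 member with 5 copies of GGACT among them, the most in the 10 genes plotted. Zfp871, Tsc22d1 and Il17rd completed these 10 genes, with 5, 5 and 4 members. In all 20 genes tied at 4 members, and the 5 plotted were taken by their number of Cfg1 members and then by the alphabet, so genes rich in Cfg1 were favoured.

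**Figure D2:**
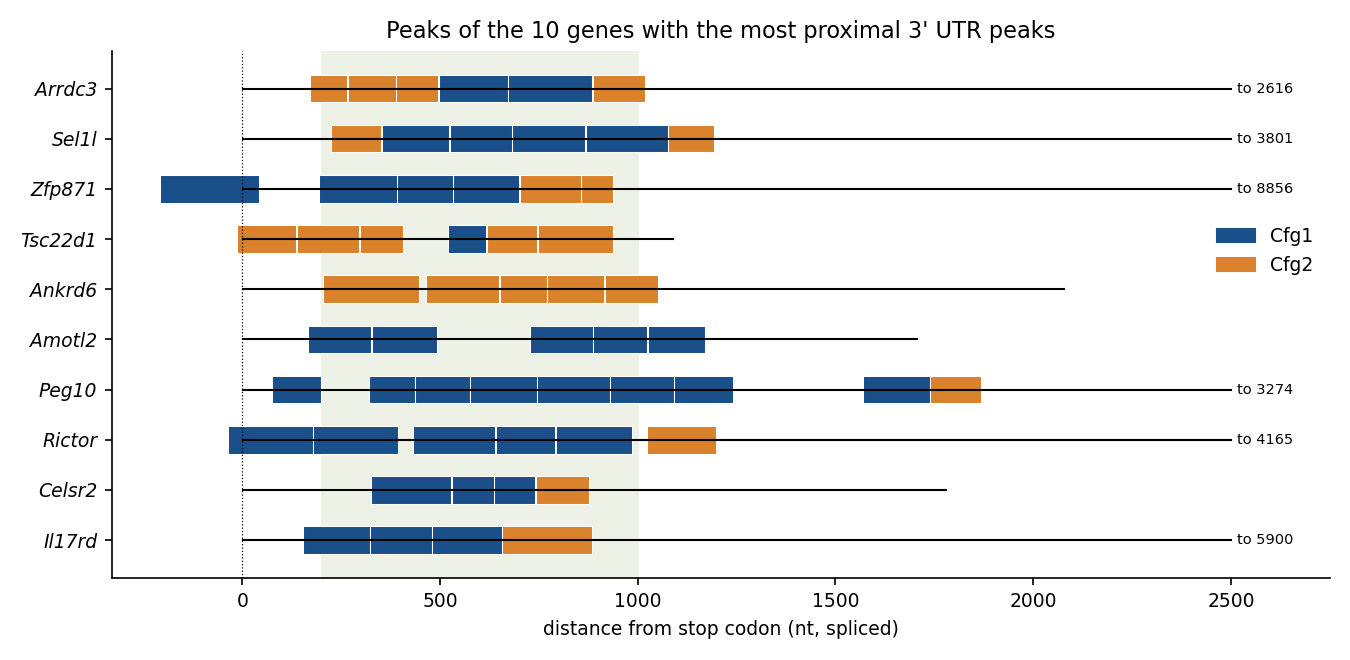
The first 2500 nt of the 3′ UTR of 10 genes with the most members (ties at 4 members broken by Cfg1 members, then the alphabet) are drawn as lines on a scale of nucleotides from the stop codon, with SySy-called peaks as boxes coloured by list and the full 3′ UTR length printed where the line is cut. The shaded band is the proximal window, in which Arrdc3 has 6 peaks and Amotl2, Peg10 and Rictor have Cfg1 peaks only.

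The genes whose SySy-called exonic peaks all lay in the window followed Arrdc3 and Ankrd6 with up to 4 members. Bid, a BH3-only apoptosis gene, had 4 members at 306, 631, 768 and 935 nt, those at 631 and 768 nt in Cfg1 and the outer pair in Cfg2. Rragc, a Rag GTPase that signals amino acid supply to mTORC1, had 4 Cfg2 members between 229 and 796 nt. Emsy and Plpbp had 4 members each as well. Itga5, the alpha-5 integrin subunit, and Pcsk6, a proprotein convertase that can process Nodal, had 3 members each, all Cfg1, with GGACT in 1 of 3 and 2 of 3.

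A smaller share of members than of stop codon peaks had been called with both antibodies. Cfg1 peaks made up 40.1% of the 1540 members (618 peaks) and 52.7% of the 2093 SySy-called peaks within 200 nt of the stop codon (1102 peaks), a difference of -12.5 percentage points (95% Newcombe interval -15.7 to -9.25). By a two-sided Fisher's exact test p was 7.9e-14, and 4.7e-13 after adjustment over 6 tests. The stop codon window also takes in coding sequence. On its 3′ UTR side alone the Cfg1 share was 47.1% (620 of 1316 peaks), and the difference of the members from it was smaller, at -6.98 points (-10.6 to -3.33, adjusted exact p = 0.0011), a comparison added after the data had been seen. Beyond 1000 nt the share was 42% of 383 peaks. The difference from the members was -1.91 points (interval -7.46 to 3.53, with an adjusted exact p of 0.52), and this interval does not show that the shares are alike. In bins of 100 nt the Cfg1 share was 49.7% (45.8 to 53.5%) at 0 to 100 nt and 44.6% (40.9 to 48.4%) at 100 to 200 nt. At 200 to 300 nt it was 43.5% (39.1 to 47.9%), so no step was seen at the near border. Within the window the Cfg1 share was 42.4% (39.1 to 45.9%) at 200 to 400 nt and 36.8% (32.1 to 41.8%) at 400 to 600 nt, and their intervals overlap.

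**Figure D3:**
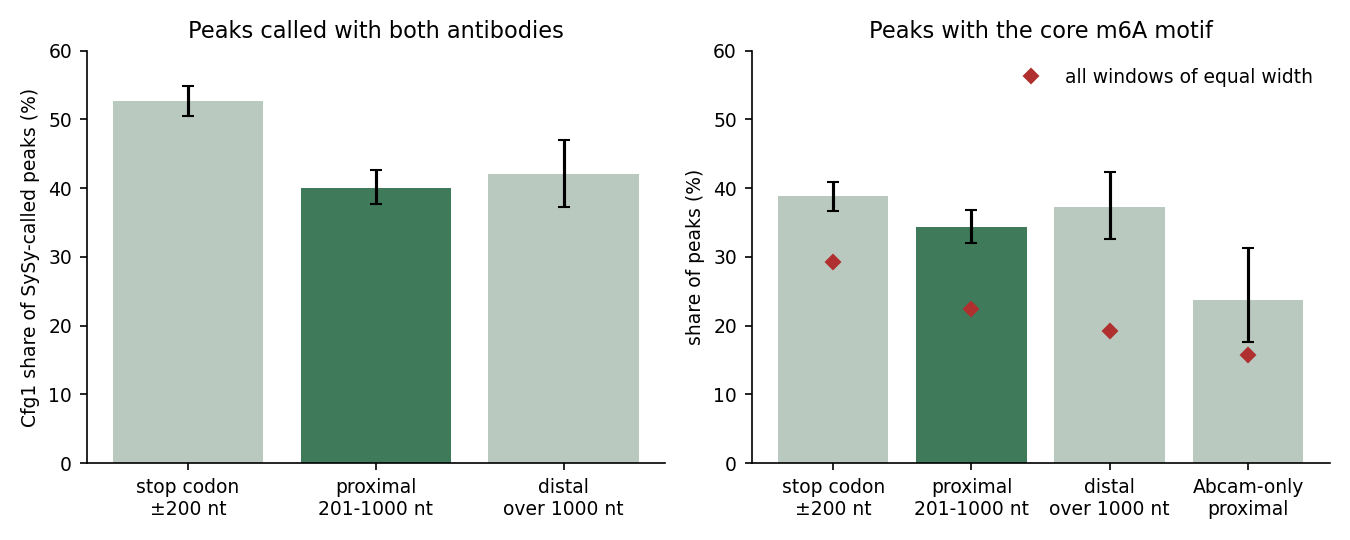
Bars give the Cfg1 share of SySy-called peaks (left) and the share of peaks with the core m6A motif (right) by position, with 95% Wilson intervals, and diamonds give the motif share over every window of equal width in the same 3′ UTR segments. Members (dark bars) reach 40.1% and 34.4%, and all 4 groups lie above their diamonds.

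GGACT was more frequent in members than in equally wide windows of the same proximal 3′ UTRs. It was present in 530 of 1540 members (34.4%, 32.1 to 36.8%), against 22.4% of all windows of the same width that fit into the same proximal 3′ UTRs, each counted without sampling and with the peaks themselves included. The shorter GGAC was present in 65.5% of members and 52.9% of windows. DRACH in any form was present in 98.3% of members, but also in 96.6% of windows, so its presence hardly separates them. Of the members with GGACT, 407 had 1 copy and 123 had 2 or more, up to 5.

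The excess was also visible in counts per base, where all 1024 pentamers were compared between the bases inside members and the peak-free bases of the same windows. GGACT ranked 2 of 1024, with 2.49 copies per kb inside and 0.854 outside, a ratio of 2.91. Only CGGAC, which overlaps it and was far rarer (98 copies inside), had a higher ratio of 3.2. AGACT, a further DRACH pentamer, had a ratio of 2.04, while for GGACC it was 1.92 and for GGACA 1.88. Not all DRACH pentamers were more frequent inside, with AAACT at 1.03 and TAACA, the lowest of them, at 0.897. At the other end of the 1024 pentamers were TTTTT with 0.427, TATAT with 0.486 and ATATA with 0.506. Members were also slightly richer in GC than their windows, with medians of 49.5% and 47.9% and a mean difference of 1.5 points (SD 5.47 over members, higher in 953 of 1540). The peak-free bases lie on average further from the stop codon, and the part of this position in the ratios was not tested.

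GGACT gathered around the peak midpoint. In Cfg1 members its density was 3.4 per kb in each of the 20-nt bins centred 20 and 40 nt upstream of the midpoint and 3.65 per kb in the bin centred 20 nt downstream, against 1.38 and 0.886 per kb at 240 nt upstream and downstream. Cfg2 members peaked at 3.31 per kb in the bin 20 nt upstream, against 1.95 and 1.29 per kb at 240 nt upstream and downstream. A GGACT lay within 50 nt of the midpoint in 24% (21.9 to 26.2%) of members, namely 26.1% of Cfg1 and 22.6% of Cfg2.

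**Figure D4:**
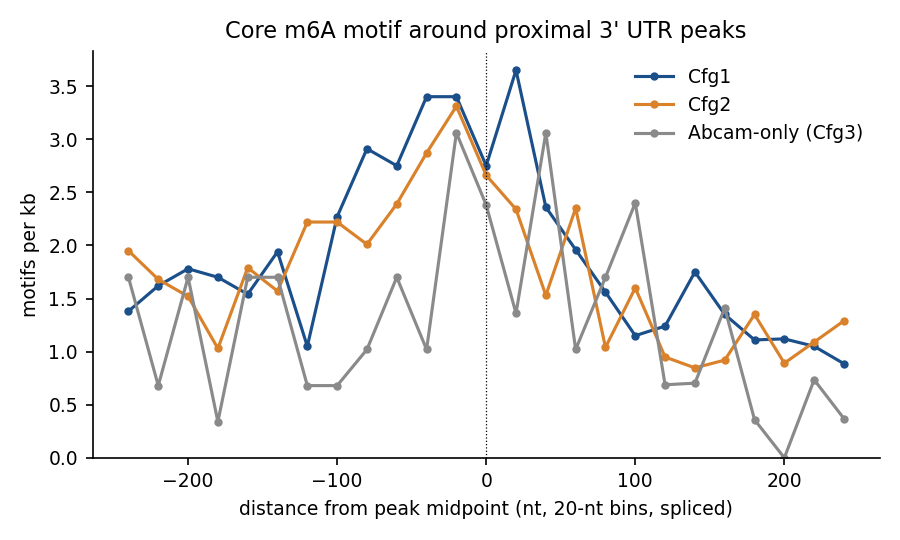
Copies of the core m6A motif per kb of spliced transcript are plotted in 20-nt bins of distance from the midpoint of proximal 3′ UTR peaks, for Cfg1, Cfg2 and Abcam-only peaks. Cfg1 reaches 3.65 and Cfg2 3.31 per kb near the midpoint, and the Abcam-only line, from 147 peaks, has few motifs per bin.

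Compared with the neighbouring groups, members had GGACT less often than stop codon peaks and more often than Abcam-only peaks of the same window. The share was 34.4% in members and 38.8% in stop codon peaks (812 of 2093), a difference of -4.38 points (-7.52 to -1.21, exact p = 0.0074, which became 0.018 on adjustment). This call was lost when 1 peak was kept per gene (-4.04 points, adjusted exact p = 0.062) and in 4 other settings. The background differs as well, since 29.2% of equally wide windows around the same stop codons held GGACT. For members this was 22.4% of windows and for distal peaks 19.3%. The excess of peaks over their windows was 9.55 points for stop codon peaks, 12 for members and 18.1 for distal peaks. Set against their windows, members were therefore not poorer in GGACT than stop codon peaks, and these excesses were not tested. Distal peaks had a share of 37.3% (difference -2.92, -8.39 to 2.36, exact test, adjusted p = 0.34).

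Abcam-only proximal peaks had GGACT in 23.8% (35 of 147), which members exceeded by 10.6 points (2.76 to 17.2, exact p = 0.01, or 0.018 adjusted). Among the members, Cfg1 exceeded Cfg2 by 6.3 points, with 38.2% (236 of 618) against 31.9% (294 of 922; 1.45 to 11.2, exact test, p = 0.012, adjusted p = 0.018). Widths moved with these groups, with medians of 200 nt for Cfg1, 160 nt for Cfg2 and 126 nt for Abcam-only peaks. With the search held to the central 100 nt the differences were 3.87 and 4.15 points and neither passed the threshold (adjusted exact p = 0.36 and 0.14). The equally wide windows differed in the same order, with GGACT in 22.4% of those of members and 15.8% of those of Abcam-only peaks, and in 25% for Cfg1 and 20.7% for Cfg2. The difference from Abcam-only peaks was also lost with GGAC in place of GGACT (7.02 points, adjusted exact p = 0.15), with both ends of a peak inside the window (9.47 points, 0.093) and with the window started 100 nt further on (9.8 points, 0.064). With GGAC the gap between Cfg1 and Cfg2 was 16 points (75.1% and 59.1%, adjusted exact p = 2.1e-10, beside 58.8% and 48.9% of their windows).

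Other 3′ UTR elements were not more frequent in members than in their windows. The poly(A) signal AATAAA was present in 5.71% of members and 7.48% of windows, its variant ATTAAA in 4.68% and 5.91%, the AU-rich pentamer ATTTA in 14.5% and 17.6%, and the Pumilio motif TGTANATA in 2.14% and 3.19%. For microRNAs the mature sequences from RefSeq (GRCm38.p6) are shown with the seed in capitals, because the embryonic stem cell family of miR-294 and the differentiation-linked let-7 family have opposed roles in these cells.
mmu-miR-294-3p: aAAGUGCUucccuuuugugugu
mmu-let-7a-5p: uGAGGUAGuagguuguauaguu
The reverse complement of the miR-294-3p seed (AGCACTT) was present in 35 members (2.27%, 1.64 to 3.14%) and 2.29% of windows, and that of the let-7a-5p seed (CTACCTC) in 17 members (1.1%, 0.69 to 1.76%) and 1.48% of windows. All motifs were searched on the transcript strand only. Repeat-masked sequence covered 8.18% of the bases of the average member and 12.5% of the windows.

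The pluripotency list held some of the better known genes with members. Of its 35 genes with a 3′ UTR over 200 nt, 9 had a member (25.7%, 14.2 to 42.1%, beside 6.51% of all), and of the 27 with any exonic peak 33.3% did, beside 27.2%. Fgf4, the autocrine growth factor that primes stem cells for differentiation, had 3 members at 321, 520 and 772 nt, the first in Cfg2 and the others in Cfg1, and no SySy-called exonic peak outside the window. Klf4, a reprogramming factor, had 3 Cfg2 members at 358, 528 and 682 nt. The pluripotency factor genes Pou5f1, Sox2, Nanog, Esrrb and Zfp42 had no member. Tbx3 had 2 Cfg1 members at 217 and 425 nt, the nearer with the GGACT shown above, and Otx2, a factor of the primed state, had 2 Cfg2 members at 244 and 424 nt in a 3′ UTR of only 535 nt. Nr5a2 and Thap11 each had 1 Cfg1 member, and Myc, Sall4 and Tet2 each 1 Cfg2 member.

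Immediate early genes, whose messages are induced fast and decay fast, had members in 9 of 47 cases (19.1%, 10.4 to 32.5%, and 34.6% of those with any exonic peak). Socs3, the feedback inhibitor of LIF signalling through STAT3, had 2 Cfg1 members at 219 and 428 nt. Maff had 1 member of each list, both with GGACT, and Ier2 had 2 Cfg2 members. Dusp1, a MAP kinase phosphatase, had 1 Cfg1 member at 255 nt and Jun 1 Cfg2 member at 242 nt with 2 copies of GGACT. Plk2, Rhob and Zfp36l2, which encodes an AU-rich element binding protein, each had 1 Cfg1 member, and Myc had 1 Cfg2 member.

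Members of the Nodal, BMP and FGF pathways were found in 11 of 49 genes (22.4%, 13 to 35.9%, and 35.5% of those with any exonic peak). Beside Fgf4 they included the FGF inhibitor Spry4 with 3 Cfg2 members, the corepressor Ski with 2 Cfg1 members, the Nodal receptor Acvr1b with 2 Cfg2 members and the Nodal co-receptor Tdgf1 with 1 Cfg1 member. Among genes of microRNA silencing 8 of 30 had a member (26.7%, 14.2 to 44.4%, and 53.3% of the 15 with any exonic peak). The decapping genes Dcp2 and Dcp1a had 3 and 2 members, the helicase gene Ddx6 had 2 Cfg2 members, and the Argonaute gene Ago2 had 1 Cfg2 member at 299 nt of a 3′ UTR of 11064 nt. The median 3′ UTR was 2669 nt long in this list and 1570 nt in the signalling list, against 1080 nt over all genes.

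Of 22 m6A machinery genes, 2 had a member (9.09%, 2.53 to 27.8%), above the 6.51% of all genes, but of the 14 with any exonic peak only 14.3% did, below the 27.2%. Rbm15, an adaptor of the writer complex, had 1 Cfg1 member at 458 nt beside 12 SySy-called peaks upstream of the stop codon window, and Zc3h13, a further subunit, had 1 Cfg2 member at 277 nt. Zbtb factors stood lowest among the lists with any member, with 1 of 39 (2.56%, 0.454 to 13.2%), although 30 of the 39 had an exonic peak (3.33%). Zbtb37 was that gene. No member was found in 32 cytosolic ribosomal protein genes, or in 26 respiratory chain genes. Counting 3 genes of the total, these allow shares of up to 9.38% and 11.5%, and the upper Wilson limits are 10.7% and 12.9%. Their median 3′ UTRs were short, at 473 and 421.5 nt, and in each list 1 gene had an exonic peak.

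The remaining lists had shares above the 6.51% of all genes, but most lay below the 27.2% when only genes with an exonic peak were counted. The Wilson interval lay wholly above 6.51% only for Zfp genes and developmental factors, with lower limits of 9.98% and 7.12%. For the other remaining lists the lower limits ran from 3.29% (SR splicing factors) to 6.12% (solute carriers). Their shares are therefore not set apart from the 6.51%. Zfp genes had members in 45 of 342 (13.2%, 9.98 to 17.2%), with Zfp871 and Zfp704 in front, and 23.3% of those with any exonic peak had one. Developmental Sox, Fox, Gata, Klf and homeobox factors had 10 of 78 (12.8%, and 28.6% of those with any exonic peak), among them Klf9 with 3 and Klf13 and Foxo1 with 2 members. Histone lysine methyltransferases and demethylases had 6 of 47 (12.8%, and 16.2% of those with any exonic peak), led by Kdm4b, whose Cfg1 member at 755 nt held 3 copies of GGACT. Usp deubiquitinases had 6 of 49 (12.2%, Usp36 first), Polycomb genes 4 of 33 (12.1%, Epop first) and SR splicing factors 2 of 17 (11.8%, Srek1 and Srsf5). Of those with any exonic peak, these were 22.2%, 25% and 18.2%. Wnt, Notch and Hedgehog genes had 6 of 55 (10.9%), Rnf genes 8 of 74 (10.8%, Rnf169 first) and chromatin remodellers 4 of 38 (10.5%, Chd2 first), or 22.2%, 30.8% and 16.7% of those with any exonic peak. The 6 of the Wnt, Notch and Hedgehog list include Tcf3 on chromosome 10, which is the E2A gene and not the Wnt effector Tcf7l1. In the Notch receptors Notch1 and Notch2 a single Cfg1 member lay at 905 and 405 nt, with 3 and 1 copies of GGACT.

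Solute carriers had members in 28 of 320 genes (8.75%, 6.12 to 12.4%), near the 6.51% of all genes, but in 38.9% of the 72 with any exonic peak, above the 27.2% of all. Slc44a2 and Slc35e2 had 4 members each, and Slc1a4 and Slc7a1, carriers of neutral and cationic amino acids, had 3 Cfg2 members each. The lists were described by counts without a set test, and the part of transcript abundance in these shares was not tested, since the files hold no input level.

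**Figure D5:**
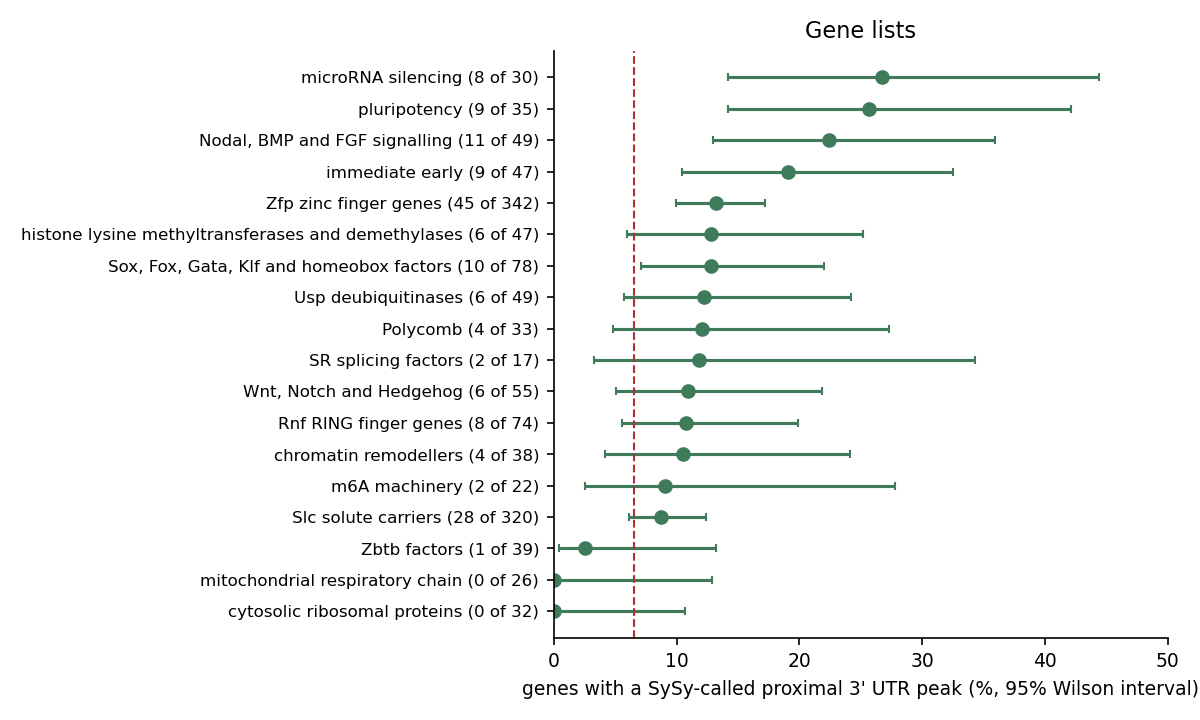
The share of genes with a member is plotted for 18 gene lists with 95% Wilson intervals, and the counts stand beside the names. The dashed line is the 6.51% of all 17030 coding genes with a 3′ UTR over 200 nt, with the Zbtb, ribosomal protein and respiratory chain lists below it. Counted over genes with any exonic peak, which is not drawn, the shares of 8 further lists were below the 27.2% of all such genes.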

How the data were processed

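The deposited files were 3 lists of peak coordinates from E14 mESC ChrMeRIP-seq, with start, end, name and strand, and a score column that was 0 throughout. The authors called peaks on pooled duplicates of each antibody against input with MACS2 2.1.1 on mm10, split them between summits, trimmed them around each summit to at most 250 nt, and gave each the strand of stronger enrichment, as stated in the methods or in the submitters' processing notes. HOMER served the study for its own motif search. The aligner is not given in the sources used here. Depth per library is unknown.

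Peaks were placed by midpoint on 1 transcript per coding gene (longest coding sequence, GENCODE vM21; the study worked with a later release). Spliced sequences of 1108 of 1108 member transcripts matched the genome base for base. In 1 entry a stray strand character was read by its first symbol. Shares have Wilson intervals and differences Newcombe intervals. The 6 tests were two-sided Fisher's exact tests with Benjamini-Hochberg adjustment and a threshold of 0.05. Placement and tests were first tested on simulated data. Alternatives varied the transcript, the rule of position, the peaks kept per gene or call, the borders, the motif and the width searched.

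Named were the 10 genes with the most members (ties by Cfg1 members, then alphabet), all member genes of the pluripotency, m6A and immediate early lists, up to 5 genes of each other list, border members, and the 10 genes with the most members among those without other SySy-called exonic peaks. A few of these genes are left unnamed or are not reported here. The members, gene lists and tests were chosen with earlier results of these data known. Software was Python 3.11.15, numpy 2.4.6, scipy 1.17.1, pysam 0.24.0, samtools 1.23.1 and matplotlib 3.10.9.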

Additional observations from a re-analysis of the deposited data

How the results depend on the processing

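Of 43 tested alternatives, 32 kept their direction and their side of the threshold, 11 kept the direction but no longer passed, and 0 changed direction. The lower Cfg1 share of members than of stop codon peaks passed in all 7 of its settings (-14.1 to -6.98 points, the smallest with the stop codon window on its 3′ UTR side only, a setting chosen after seeing the data, in which the GGACT difference was -5.78). The lower GGACT share of members than of stop codon peaks did not pass with both ends of a peak inside the class (-2.26 points), with 1 peak per gene and class (-4.04), with a window from 300 to 1000 nt (-4.21), in the central 100 nt (-2.54) or with any DRACH pentamer (-0.494). The higher GGACT share of members than of Abcam-only proximal peaks did not pass with both ends inside (9.47), with that window (9.8), in the central 100 nt (3.87), with GGAC (7.02) or with DRACH (1.71). That of Cfg1 over Cfg2 members did not pass in the central 100 nt (4.15). The cause was not tested. A further 5 values had no test. The density ratio of 3.89 became 4.46 in genes with an exonic peak and 5.68 between the outermost 50-nt bins, and the number of members was 1642 with the longest transcript, 1533 with transcripts of protein-coding biotype only and 1038 with both ends inside the window.

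No paired analysis was possible because the lists were called on pooled duplicates and hold no value per replicate, so replicates could not be left out either. This concerns pairing by replicate. Members and stop codon peaks were not paired by gene or by original call, and the tests treated them as independent groups. Yet 417 of the 1108 genes held both, and 407 members came from the same call as a stop codon peak. A stricter peak threshold was not run, since the score was 0 for all peaks.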

Other observations

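The X chromosome held 9 members, or 1.41 per 100 of its 640 coding genes with a 3′ UTR over 200 nt, while the autosomes ranged from 5.05 per 100 genes on chromosome 6 to 12.5 on chromosomes 4, 5, 8 and 11. Of all members, 0.584% (0.308 to 1.11%) were X-linked, beside 0.764% (0.471 to 1.24%) of stop codon peaks, 2.03% (1.67 to 2.47%) of SySy-called peaks upstream of the stop codon window, 2.35% (1.24 to 4.4%) of distal peaks and 3.61% (3.18 to 4.1%) of Abcam-only peaks. X-linked genes were 3.76% of the coding genes with a 3′ UTR over 200 nt and 1.99% of those with an exonic peak. These shares were looked up after the data had been seen and were not tested.

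The bases beside GGACT inside members were set against those of GGACT copies in the peak-free rest of the same windows (602 and 439 copies). The base just before it was T in 37.7% of copies inside and 31.4% outside, G in 24.9% and 31%, A in 30.4% and 33.7%, and C in 6.98% and 3.87%. The base just after it was G in 37.9% inside and 30.8% outside, T in 26.7% and 31.9%, and A in 12.5% and 14.8%. These values were not tested either.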
